A study of Mus musculus with 27 samples.

Results

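The interferon-stimulated genes described here are 36 mouse genes known to be induced by interferons, and 33 of them were measured among the 19935 genes followed on the arrays. A gene was followed through the probe set annotated to its symbol alone, and no member had more than 1 such probe set. The ubiquitin-like modifier Isg15 and the GTPase Gbp2 lay only on probe sets listed with another gene as well (Gm9706 and Gbp2b), and Ifi44 was not listed in the annotation, so these 3 members have no value here. Marrow came from femurs and tibiae of C57BL/6 mice aged 8 to 12 weeks. It was either unstimulated or cultured for 12 h, 24 h, 48 h or 11 days in Flt3-L, the ligand of the receptor Flt3, under which marrow progenitors give rise to dendritic and other myeloid cells. Flt3-L was made by transfected B16 tumor cells and used at about 200 ng/ml. Further cultures of the same 4 lengths also held cyclosporin A (CsA), an inhibitor of the phosphatase calcineurin, at 2 µg/ml from 30 min before Flt3-L onward. Each of the 9 groups had 3 arrays, 27 in all, which the labels call biological replicates without naming the animals, so p-values measure the spread between these samples. Nothing in the labels tells if unstimulated marrow was used fresh or after time in medium, so the ligand and the time in culture cannot be told apart in comparisons with them.

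Interferons are secreted proteins that warn cells of infection. Type I interferons bind the receptor made of Ifnar1 and Ifnar2, whose kinases activate Stat2. With Irf9 it enters a complex that binds a promoter element called ISRE, while the response to interferon gamma runs through an element called GAS. The genes switched on include enzymes and proteins that block viruses, sensors of foreign nucleic acid, transcription factors that extend the response, chemokines and the peptide-loading machinery of MHC class I. Many are expressed at a low tonic level without infection, and plasmacytoid dendritic cells, which arise in cultures with Flt3-L, can make large amounts of type I interferon.

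Array medians lay between 114.2 and 124.8 on the deposited signal scale, and across genes the nearest array came from the same group for 26 of the 27 arrays. The exception was array 3 of the 12 h cultures with CsA, which lay closest to array 3 of the 12 h cultures without it. Cell markers moved strongly with time in culture. The summed signal of 13 neutrophil markers was 79204 to 80524 in unstimulated cells and 5694 to 6259 after 11 days of Flt3-L, whereas that of 11 monocyte and macrophage markers went from between 6593 and 7391 to between 41190 and 43642. Over the same interval 11 conventional dendritic cell markers went from between 6526 and 6685 to between 19540 and 19909, and 10 plasmacytoid dendritic cell markers from between 8460 and 8786, through 12674 to 12885 at 48 h, to between 5854 and 6409. These were mixed populations, in which fewer cells of a type and less RNA per cell cannot be told apart. The part of these shifts in the results below was not tested.

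Promoter windows from RefSeq (GRCm38.p6, 250 bases before to 50 after the gene's start) were found for 25 of the 33 measured members. The core of the ISRE, GAAANNGAAA on either strand, occurred in 13 of the 25, or 52% of these members, against 3.99% of 27025 genes. The GAS letters TTCNNNGAA occurred in 6 of the 25, or 24%, against 9.55% of genes. Such matches describe letters only and show no binding. The promoters below belong to some of the members that the results turn on. Mx1, Usp18, Zbp1 and Dhx58 were among the members without a window. Sequences run 5′ to 3′ on the gene's own strand, with matches to either motif in capitals.
Rsad2, chr12:26456403-26456702, minus strand: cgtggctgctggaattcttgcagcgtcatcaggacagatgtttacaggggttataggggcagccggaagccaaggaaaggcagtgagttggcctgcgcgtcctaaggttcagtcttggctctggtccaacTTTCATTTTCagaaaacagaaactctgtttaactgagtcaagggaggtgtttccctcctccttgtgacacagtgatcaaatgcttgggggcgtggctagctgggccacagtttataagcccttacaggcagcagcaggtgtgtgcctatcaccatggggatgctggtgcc
Oas3, chr5:120777610-120777909, minus strand: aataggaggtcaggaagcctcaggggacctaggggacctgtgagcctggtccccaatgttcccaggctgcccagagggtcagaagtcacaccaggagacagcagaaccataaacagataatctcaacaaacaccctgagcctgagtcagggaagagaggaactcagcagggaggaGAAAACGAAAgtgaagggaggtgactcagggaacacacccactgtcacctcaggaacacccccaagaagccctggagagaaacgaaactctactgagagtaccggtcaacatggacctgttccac
Stat2, chr10:128270248-128270547, plus strand: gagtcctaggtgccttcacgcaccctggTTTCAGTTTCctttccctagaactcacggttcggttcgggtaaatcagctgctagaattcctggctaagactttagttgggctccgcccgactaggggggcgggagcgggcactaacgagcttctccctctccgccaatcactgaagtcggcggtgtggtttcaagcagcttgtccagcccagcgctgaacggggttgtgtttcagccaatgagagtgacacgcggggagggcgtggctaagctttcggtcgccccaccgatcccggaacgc
Cxcl10, chr5:92348840-92349139, minus strand: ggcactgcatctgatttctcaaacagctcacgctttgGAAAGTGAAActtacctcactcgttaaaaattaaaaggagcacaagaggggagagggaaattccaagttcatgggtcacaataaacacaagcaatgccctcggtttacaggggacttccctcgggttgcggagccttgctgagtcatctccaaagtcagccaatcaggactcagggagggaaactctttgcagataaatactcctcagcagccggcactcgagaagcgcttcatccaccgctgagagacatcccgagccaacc
Bst2, chr8:71537423-71537722, minus strand: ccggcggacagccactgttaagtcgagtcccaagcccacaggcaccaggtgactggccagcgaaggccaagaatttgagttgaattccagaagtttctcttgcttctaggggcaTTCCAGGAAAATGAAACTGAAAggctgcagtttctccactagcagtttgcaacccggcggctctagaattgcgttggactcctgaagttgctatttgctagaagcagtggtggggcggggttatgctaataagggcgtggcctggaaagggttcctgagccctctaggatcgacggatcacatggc
Tap1, chr17:34187306-34187605, plus strand: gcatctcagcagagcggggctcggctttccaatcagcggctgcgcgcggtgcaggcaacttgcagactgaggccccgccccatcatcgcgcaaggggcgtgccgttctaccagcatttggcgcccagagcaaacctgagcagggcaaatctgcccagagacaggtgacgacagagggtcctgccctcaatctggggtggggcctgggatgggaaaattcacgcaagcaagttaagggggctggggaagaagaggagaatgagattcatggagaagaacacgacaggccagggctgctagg
Counting from the start of the gene, the ISRE match began at -120 in Rsad2, at -75 in Oas3, at -222 in Stat2 and at -213 in Cxcl10. Bst2 held a pair of overlapping ISRE matches, at -130 and -124, and a GAS match at -136 that overlapped the match at -130. The Tap1 window held neither motif and shared 275 bases with that of Psmb9, which is read from the opposite strand. Windows of Cmpk2, Cxcl9, Herc6, Irf7, Irf9, Oasl1, Oasl2, Psmb9 and Xaf1 also held neither motif.

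In Flt3-L culture without CsA the members did not move as 1 block. A gene was called when the adjusted p of limma, over all 19935 genes, was below 0.05. Signals are given on the log2 scale, and changes are given ± SE with 3 arrays a group. Against unstimulated cells 10 members were higher and 8 lower at 12 h, a comparison in which 36% of all genes were called. At 24 h 4 were higher and 9 lower (35.6% of all genes were called), at 48 h 5 were higher and 15 lower (37.1%), and at 11 days 7 were higher and 15 lower (51.9%). Members called lower were 15 of 33 at both later times, against 18.6% and 24.8% of all genes called lower. These shares count all genes, dim ones included. With genes of a mean log2 signal below 6.23 left out, 50.9%, 52.1%, 53.1% and 70.4% of genes were called at the 4 times. Members called higher were then 10, 5, 6 and 7, and members called lower 8, 10, 15 and 16. The median change of the 33 members was -0.04, -0.07, -0.21 and -0.20 at the 4 times, against 0.05, 0.04, 0.01 and 0.02 for all genes. These 4 comparisons share the unstimulated arrays.

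**Figure D1:**
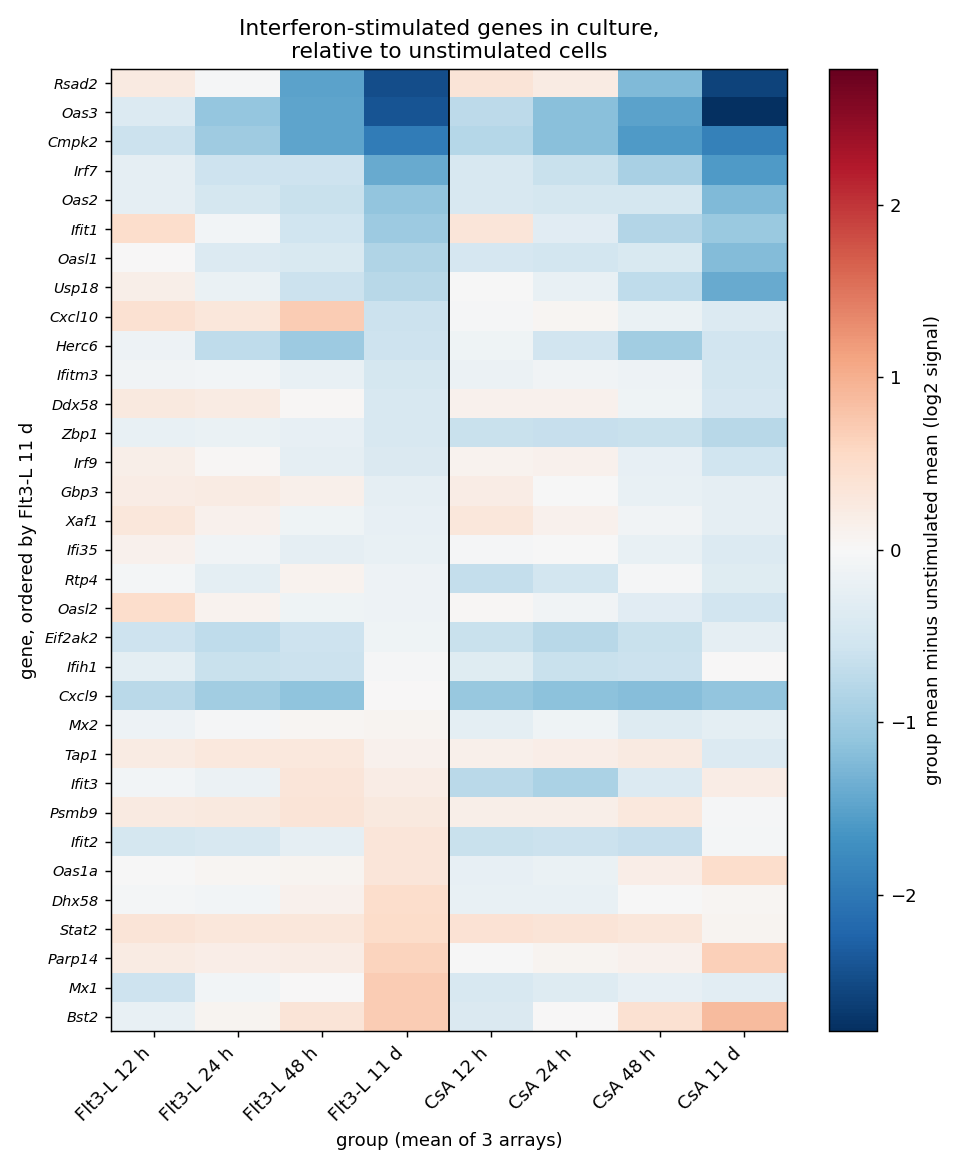
Mean log2 signal of each of the 33 measured interferon-stimulated genes in 8 culture groups, minus its mean in unstimulated cells, as colour, with 3 arrays a group; blue is lower and red higher, and the line separates cultures without CsA (left) from those with it (right). Rsad2, Oas3 and Cmpk2 at the top became lower with time in culture, Bst2, Mx1 and Parp14 at the bottom were higher after 11 days of Flt3-L alone than at its earlier times, and Mx1, Usp18 and Stat2 were lower in the 11 day column with CsA than in that without it.

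Among the antiviral effectors, Rsad2 and its neighbour Cmpk2 fell most. Rsad2 encodes viperin, an enzyme that makes a chain-terminating nucleotide, and its log2 signal was 11.75, 11.66 and 11.75 in unstimulated cells. It was 12.06, 11.90 and 11.94 at 12 h, 11.68, 11.62 and 11.76 at 24 h, 10.10, 10.26 and 10.31 at 48 h, and 9.07, 9.15 and 9.53 at 11 days. Thus Rsad2 stood slightly above unstimulated cells at 12 h, where the groups did not overlap, and far below them from 48 h on. The change was 0.24 ± 0.09 at 12 h (adjusted p = 0.029), -1.50 ± 0.09 at 48 h (1.95e-13) and -2.47 ± 0.09 at 11 days, 5.55-fold (2.09e-18). Cmpk2, the adjacent gene on chromosome 12, encodes a nucleotide kinase. It read 10.10, 10.15 and 10.26 in unstimulated cells, then 9.74, 9.37 and 9.56 at 12 h and 8.01, 8.03 and 8.64 at 11 days. Cmpk2 was lower at every time, by -0.62 ± 0.13, -1.0 ± 0.13, -1.47 ± 0.13 and -1.95 ± 0.13 in order of time (adjusted p = 0.000525 at 12 h and 1.49e-12 at 11 days). The neighbours were therefore called in opposite directions at 12 h, Rsad2 higher and Cmpk2 lower. Without Flt3-L 12 h array 1, 3 members were called higher at 12 h instead of 10, and whether Rsad2 was among them is not reported here.

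The other antiviral effectors took different courses. Bst2, the tetherin that holds budding virus at the cell surface and a surface marker of plasmacytoid dendritic cells in mice, read 8.32, 8.40 and 8.40 in unstimulated cells. After 12 h it read 8.21, 8.18 and 8.13, after 48 h 8.70, 8.76 and 8.74, and after 11 days 8.99, 9.07 and 9.20. All 3 arrays were below the unstimulated ones at 12 h and above them at 48 h and 11 days, with changes of -0.20 ± 0.05 (adjusted p = 0.00538), 0.36 ± 0.05 (4.44e-06) and 0.71 ± 0.05 (1.63e-11). Eif2ak2, the kinase PKR that stops translation on sensing double-stranded RNA, was lower by -0.58 ± 0.10, -0.71 ± 0.10 and -0.58 ± 0.10 at 12 h, 24 h and 48 h (adjusted p = 3.75e-05, 1.55e-06 and 2.22e-05). At 11 days its arrays read 9.07, 9.19 and 9.22, within the range of the unstimulated arrays (9.15, 9.36 and 9.33) except for the first. Ifitm3, which blocks fusion of virus with endosomes, was lower by -0.21 ± 0.07 at 48 h (adjusted p = 0.0252) and -0.49 ± 0.07 at 11 days (2.51e-06).

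Mx1, of the Mx family of GTPases, went down and later up. Its arrays read 6.76, 6.95 and 6.99 unstimulated, 6.41, 6.38 and 6.18 at 12 h, and 7.46, 7.60 and 7.78 at 11 days. Mx1 was lower at 12 h (-0.58 ± 0.18, adjusted p = 0.0161) and higher at 11 days (0.71 ± 0.18, adjusted p = 0.00191), with no overlap of arrays at either time. Its 12 h call was lost without unstimulated array 3 (adjusted p = 0.06) or Flt3-L 12 h array 3 (0.0702). Mx2 was the 1 member with a mean log2 signal below 6.23, the level under which genes were left out in the filter on dim genes, and its group means lay between 5.30 and 5.73 with no call in any comparison with unstimulated cells.

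In the OAS family, whose enzymes make oligoadenylates that activate an RNA-degrading enzyme, Oas3 fell steadily. It read 9.92, 10.01 and 9.93 unstimulated, 9.75, 9.46 and 9.46 at 12 h, 8.82, 8.90 and 8.90 at 24 h, 8.46, 8.52 and 8.43 at 48 h, and 7.34, 7.48 and 7.79 at 11 days. No array of 1 time overlapped an array of the next. The changes from unstimulated cells were -0.39 ± 0.10, -1.08 ± 0.10, -1.48 ± 0.10 and -2.42 ± 0.10, the last 5.34-fold (adjusted p = 0.00424, 5.37e-09, 1.02e-11 and 1.74e-16). Oas2, adjacent to Oas3, was lower by -0.49 ± 0.13 at 24 h, -0.63 ± 0.13 at 48 h and -1.10 ± 0.13 at 11 days (adjusted p = 0.00422, 0.000393 and 8.11e-08). Oasl1, which in mice holds back translation of Irf7, was lower by -0.39 ± 0.12, -0.43 ± 0.12 and -0.84 ± 0.12 at those times (adjusted p = 0.0139, 0.0066 and 1.57e-06). Its neighbour Oasl2 was called only at 12 h, higher by 0.48 ± 0.11 (adjusted p = 0.00153), and Oas1a only at 11 days, higher by 0.33 ± 0.11 (0.0156). Family members are similar in sequence, and signal shared between their probes was not examined.

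The IFIT proteins bind viral RNA. Ifit1 read 8.13, 8.34 and 8.30 unstimulated, 8.89, 8.55 and 8.80 at 12 h, and 7.17, 7.09 and 7.46 at 11 days, so its arrays were above the unstimulated ones first and below them last. It was higher by 0.49 ± 0.14 at 12 h (adjusted p = 0.00903) and lower by -0.55 ± 0.14 at 48 h and -1.02 ± 0.14 at 11 days (0.00332 and 1.06e-06). The 12 h call was lost without Flt3-L 12 h array 1 (adjusted p = 0.0517). Ifit2 was lower at 12 h by -0.48 ± 0.18 (adjusted p = 0.038), a call lost for 5 of 6 arrays left out in turn (up to 0.117, without unstimulated array 3) and with a variance trend and robust variances (0.0548). At 24 h its adjusted p was 0.0502, and 0.0379 with the replicate number as a block. Ifit3, adjacent to Ifit2, was not called at any time, and its arrays at 24 h spread from 7.38 to 8.77.

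Of the proteins that handle Isg15, Herc6, the mouse ligase that attaches it, read 9.64, 9.68 and 9.72 unstimulated, 8.67, 8.64 and 8.69 at 48 h, and 8.93, 9.10 and 9.26 at 11 days. Herc6 was lower by -0.70 ± 0.07 at 24 h, -1.01 ± 0.07 at 48 h and -0.58 ± 0.07 at 11 days (adjusted p = 3.01e-08, 2.43e-11 and 2.12e-07), with the lowest level at 48 h. Usp18, which removes Isg15 and dampens the type I receptor, was lower by -0.61 ± 0.14 at 48 h and -0.78 ± 0.14 at 11 days (adjusted p = 0.00106 and 4.04e-05).

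The transcription factors of the pathway diverged. Stat2 read 8.93, 9.03 and 8.99 in unstimulated cells and 9.23 or more on all 12 arrays with Flt3-L alone, so no group overlapped the unstimulated one. It was higher by 0.37 ± 0.07, 0.30 ± 0.07, 0.32 ± 0.07 and 0.50 ± 0.07 in order of time (adjusted p = 0.000115, 0.000845, 0.000413 and 5.12e-07). Irf7, the factor that amplifies type I interferon production, read 9.41, 9.59 and 9.43 unstimulated, 8.84, 8.88 and 8.97 at 48 h, and 7.82, 8.12 and 8.26 at 11 days. Irf7 was lower by -0.57 ± 0.11, -0.58 ± 0.11 and -1.41 ± 0.11 at 24 h, 48 h and 11 days (adjusted p = 0.000127, 8.89e-05 and 1.98e-11). Irf9, the partner of Stat2, was slightly higher at 12 h (0.15 ± 0.06, adjusted p = 0.0492) and lower at 48 h and 11 days (-0.25 ± 0.06 and -0.42 ± 0.06, adjusted p = 0.00148 and 1.07e-06).

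Sensors also differed among themselves. Ifih1, the long RNA sensor MDA5, was lower by -0.29 ± 0.09, -0.62 ± 0.09 and -0.59 ± 0.09 at 12 h, 24 h and 48 h (adjusted p = 0.0114, 2.4e-06 and 3.68e-06). At 11 days it read 9.02, 9.08 and 9.18, against 9.04, 9.11 and 9.24 unstimulated. Ddx58, the sensor RIG-I, was higher by 0.27 ± 0.08 and 0.23 ± 0.08 at 12 h and 24 h and lower by -0.45 ± 0.08 at 11 days (adjusted p = 0.0105, 0.0291 and 3.45e-05). Dhx58, the related helicase LGP2, was higher at 11 days only (0.50 ± 0.11, adjusted p = 0.000271), and Zbp1, a sensor of left-handed nucleic acid, was lower at 11 days only (-0.44 ± 0.11, 0.0012).

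The chemokines Cxcl9 and Cxcl10, which attract T and NK cells through a shared receptor and lie 1 gene apart, ran in opposite directions at 48 h. Cxcl9 read 7.02, 7.15 and 7.36 unstimulated and 6.19, 5.92 and 6.09 at 48 h, whereas Cxcl10 read 7.96, 8.25 and 8.05 unstimulated and 8.94, 8.83 and 8.61 at 48 h. Neither gene's groups overlapped, and the changes were -1.11 ± 0.22 for Cxcl9 (adjusted p = 0.000155) and 0.71 ± 0.19 for Cxcl10 (0.00319). Cxcl9 was also lower at 12 h (-0.75 ± 0.22, adjusted p = 0.00768) and 24 h (-0.98 ± 0.22, 0.000737). Its means of 6.20 at 24 h and 6.06 at 48 h were below 6.23, where signals are dim. By 11 days Cxcl10 read 7.38, 7.36 and 7.69, lower by -0.61 ± 0.19 (adjusted p = 0.00682), and the 3 arrays for Cxcl9 read 7.34, 6.30 and 7.94.

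Antigen-processing genes rose early. Tap1, a subunit of the peptide transporter, read 9.59, 9.77 and 9.75 unstimulated and between 9.86 and 10.08 on the 9 arrays of 12 h to 48 h, with no overlap. It was higher by 0.21 ± 0.07, 0.29 ± 0.07 and 0.30 ± 0.07 at these times (adjusted p = 0.0235, 0.00237 and 0.00154). Psmb9, the adjacent immunoproteasome gene, was higher at all 4 times, by 0.26 ± 0.08, 0.28 ± 0.08, 0.36 ± 0.08 and 0.27 ± 0.08 (adjusted p = 0.0129, 0.00739, 0.000746 and 0.00665). Among the remaining members, the ADP-ribosyltransferase Parp14 was higher at 12 h (0.23 ± 0.08, adjusted p = 0.0277) and 11 days (0.62 ± 0.08, 1.87e-07), Xaf1 was higher at 12 h (0.32 ± 0.10, 0.0119), and Ifi35 was lower at 48 h and 11 days (-0.25 ± 0.07 and -0.20 ± 0.07, 0.00491 and 0.0132). The receptor-trafficking gene Rtp4 and the GTPase Gbp3 were not called at any of the 4 times. Without Flt3-L 12 h array 1, the 18 members called at 12 h became 11, with 3 higher instead of 10 and 8 lower as before. Most calls of higher members at 12 h thus depended on this array.

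**Figure D2:**
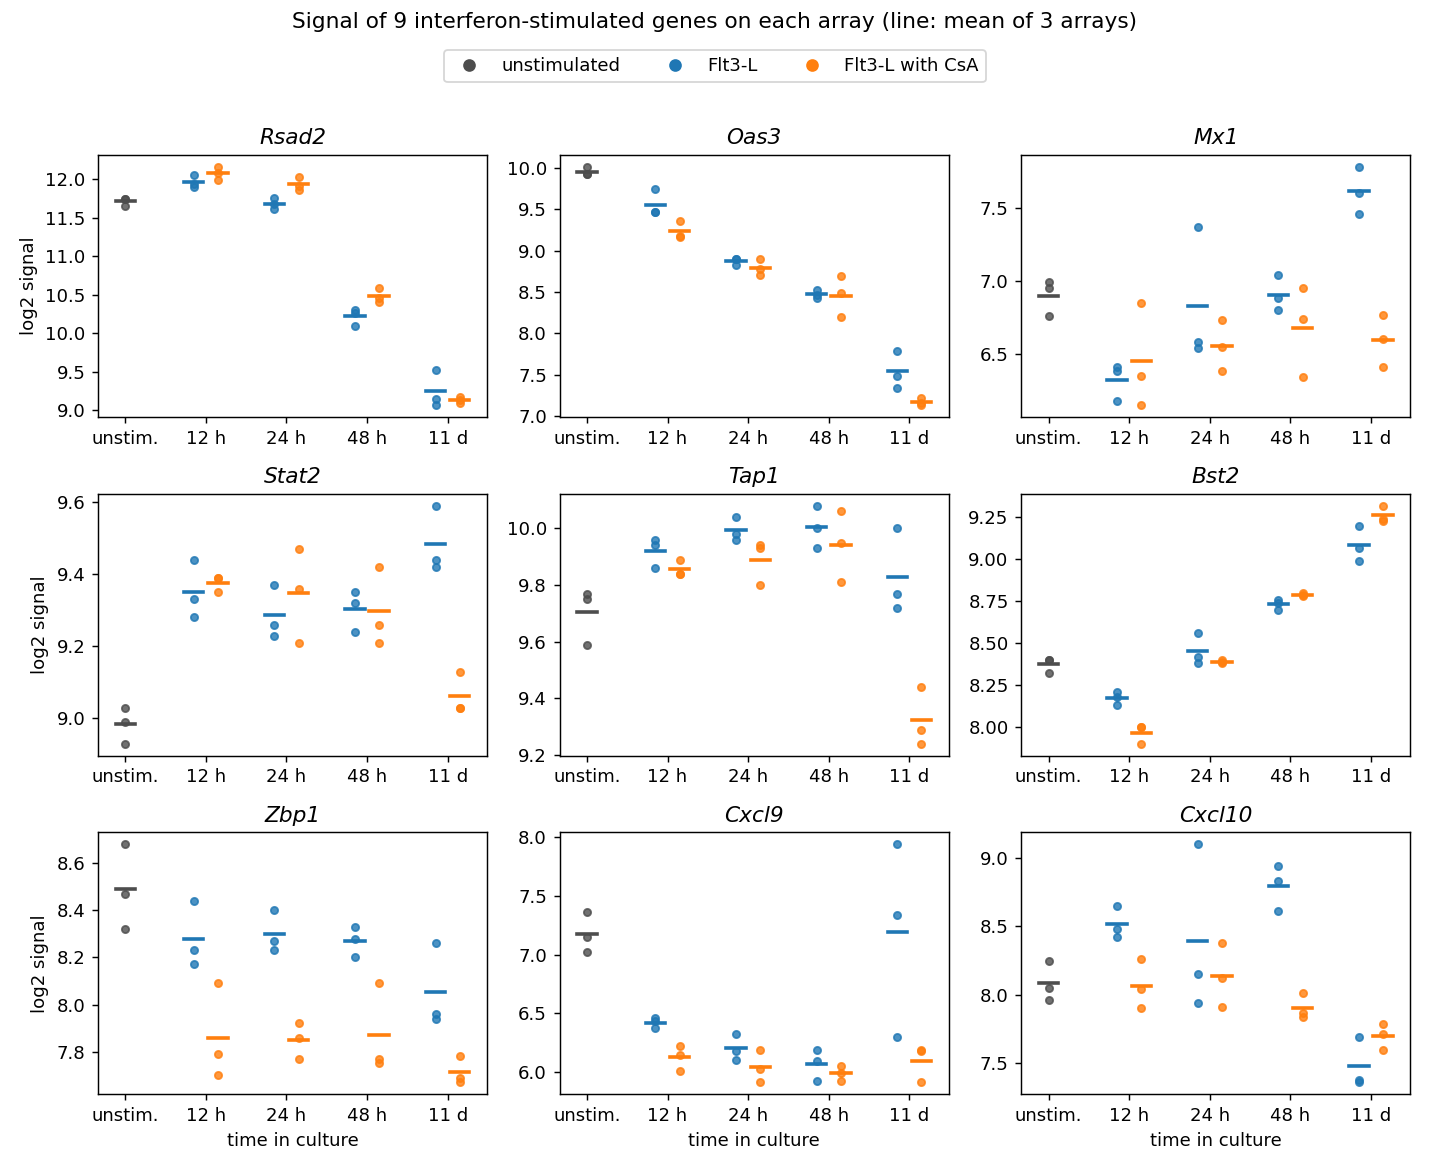
Log2 signal of 9 interferon-stimulated genes on each of the 27 arrays (points) by time in culture, with the mean of 3 arrays as a line; grey is unstimulated, blue Flt3-L alone and orange Flt3-L with CsA. Rsad2 and Oas3 became lower with time in both kinds of culture, Bst2 became higher, Stat2, Tap1, Mx1 and Cxcl9 with CsA lay below Flt3-L alone at 11 days, Cxcl10 lay below it at 48 h, and the Cxcl9 arrays of Flt3-L alone at 11 days spread from 6.30 to 7.94.

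From 48 h to 11 days without CsA, 10 members were higher and 12 lower, with 43% of all genes called and 18.8% called lower. With CsA 7 were higher and 13 lower, with 43.1% of all genes called and 19.3% called lower. With genes of a mean log2 signal below 6.23 left out, 61% of genes were called without CsA and 61.1% with it. Falls in both kinds of culture included Rsad2, by -0.97 ± 0.09 without CsA and -1.35 ± 0.09 with it (adjusted p = 6.29e-10 and 1.37e-12), Oas3, by -0.93 ± 0.10 and -1.29 ± 0.10 (3.85e-08 and 1.28e-10), and Irf7, by -0.83 ± 0.11 and -0.67 ± 0.11 (5.14e-07 and 1.25e-05). Oas2 fell by -0.47 ± 0.13 without CsA and -0.74 ± 0.13 with it (adjusted p = 0.00507 and 4.56e-05), and Oasl1 by -0.41 ± 0.12 and -0.80 ± 0.12 (0.00723 and 5.68e-06). Ifih1 rose by 0.55 ± 0.09 and 0.61 ± 0.09 (adjusted p = 7.67e-06 and 1.82e-06), Herc6 by 0.43 ± 0.07 in each (2.98e-05 and 3.02e-05), and Bst2 by 0.35 ± 0.05 and 0.47 ± 0.05 (6.69e-06 and 6.08e-08).

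Other members were called in 1 kind of culture over this interval. Without CsA, Mx1 rose by 0.71 ± 0.18 (adjusted p = 0.0025), Cxcl9 rose by 1.13 ± 0.22 (0.000102) and Cxcl10 fell by -1.32 ± 0.19 (1.47e-06). Usp18 was called only with CsA, where it fell by -0.71 ± 0.14 (adjusted p = 0.000197), as was Tap1, by -0.62 ± 0.07 (9.77e-08). Without CsA Tap1 had an adjusted p of 0.0608, and was called with the replicate number as a block (0.0482). Stat2 was called in opposite directions, 0.18 ± 0.07 without CsA (adjusted p = 0.033) and -0.23 ± 0.07 with it (0.00643). Whether these changes over time differed between the 2 kinds of culture was not tested.

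CsA was compared with Flt3-L alone at each time to see what the inhibitor does to these genes. At 12 h 4 members were called, all of them lower, with 6.73% of all genes called, 3.91% lower and 2.82% higher. Oasl1 read 7.92, 8.20 and 8.01 with CsA and 8.77, 8.33 and 8.40 without it, and Oasl2 read 10.05, 10.17 and 9.95 against 10.74, 10.44 and 10.34. Both pairs of groups stood apart without overlap, by -0.46 ± 0.12 for Oasl1 (adjusted p = 0.0292) and -0.45 ± 0.11 for Oasl2 (0.0212). Zbp1 read 7.79, 8.09 and 7.70 against 8.44, 8.23 and 8.17, a difference of -0.42 ± 0.11 (adjusted p = 0.0243), and Bst2 read 8.00, 8.00 and 7.90 against 8.21, 8.18 and 8.13, a difference of -0.20 ± 0.05 (0.0275). Groups of neither gene overlapped. All 4 calls were lost without Flt3-L 12 h array 1 (adjusted p up to 0.144) or CsA 12 h array 1 (up to 0.124) and in a fit of only these groups (up to 0.113). Single calls also ended for Oasl1 without Flt3-L 12 h array 3 (adjusted p = 0.0531), for Zbp1 without CsA 12 h array 3 (0.0506), and for Bst2 whichever array was left out and after each array's median was subtracted (0.108).

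At 24 h Zbp1 was the member called, with 3.78% of all genes called, 2.19% lower and 1.6% higher. Its arrays read 7.77, 7.86 and 7.92 with CsA and 8.23, 8.27 and 8.40 without it, a difference of -0.45 ± 0.11 (adjusted p = 0.0147). The call was lost without Flt3-L 24 h array 3 (adjusted p = 0.0847) or CsA 24 h array 1 (0.0689). Ifit3 was lower in mean by -0.69, -0.70 and -0.70 at 12 h, 24 h and 48 h and was not called. At 24 h its arrays read 6.96, 7.34 and 7.37 with CsA and 7.38, 7.64 and 8.77 without it, so that 1 array set most of the spread. The same array 3 stood apart for Mx1, at 7.37 against 6.54 and 6.58.

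After 48 h Cxcl10 and Zbp1 were called, both lower, with 4.51% of all genes called, 2.34% lower and 2.17% higher. Cxcl10 read 7.84, 8.01 and 7.87 with CsA and 8.94, 8.83 and 8.61 without it, 1.86-fold lower (-0.89 ± 0.19, adjusted p = 0.00393). The groups were far from overlapping, and this call held under each of the 8 other settings and with each array left out. Zbp1 read 7.77, 8.09 and 7.75 against 8.33, 8.28 and 8.20, a difference of -0.40 ± 0.11 (adjusted p = 0.0295). That call was lost for 5 of 6 arrays left out in turn, with an adjusted p up to 0.148 without CsA 48 h array 1 or 3, 0.109 without Flt3-L 48 h array 1, 0.0854 without array 2 and 0.05 without array 3, and in a fit of only these groups (0.0714).

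The direction of all 33 members, called or not, is given as a description. The members lower with CsA in mean, of any size, numbered 28, 26, 23 and 25 of 33 at 12 h, 24 h, 48 h and 11 days, or 84.8%, 78.8%, 69.7% and 75.8%, against 61.5%, 52.9%, 41.5% and 39.2% of all genes. Median changes were -0.17, -0.11, -0.08 and -0.14, against -0.04, -0.01, 0.02 and 0.03 for all genes. Members moved together between replicate arrays, so these counts do not rest on 33 separate measurements.

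After 11 days 11 members were lower with CsA and 1 higher, which is 36.4% of the members, with 12% of all genes called, 7.08% lower and 4.92% higher. With genes of a mean log2 signal below 6.23 left out, the same numbers of members were called, with 18.7% of genes called. The largest falls were those of the chemokine Cxcl9 and the GTPase Mx1. Mx1 read 6.77, 6.41 and 6.60 with CsA and 7.46, 7.60 and 7.78 without it, 2.02-fold lower (-1.01 ± 0.18, adjusted p = 0.000288). With CsA its level was thus in or below the range of the unstimulated arrays. Usp18 read 8.12, 8.13 and 7.84 against 8.36, 8.81 and 8.79, 1.54-fold lower (-0.63 ± 0.14, adjusted p = 0.00326). Neither gene's groups overlapped.

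Stat2 and Tap1 had the smallest adjusted p-values. Stat2 read 9.13, 9.03 and 9.03 with CsA and 9.44, 9.42 and 9.59 without it, a difference of -0.42 ± 0.07 (adjusted p = 6.14e-05). Tap1 read 9.44, 9.29 and 9.24 against 9.72, 9.77 and 10.00, a difference of -0.51 ± 0.07 (adjusted p = 1.33e-05), and its level with CsA was below every unstimulated array. Its neighbour Psmb9, whose promoter window overlaps that of Tap1, was lower by -0.30 ± 0.08 (adjusted p = 0.015). Among sensors, Dhx58 read 8.96, 8.78 and 8.73 against 9.17, 9.23 and 9.36 (-0.43 ± 0.11, adjusted p = 0.00688), and Zbp1 was lower by -0.34 ± 0.11 (0.0394). Groups of Stat2, Tap1, Psmb9, Dhx58 and Zbp1 did not overlap. Psmb9 and Zbp1 lost their calls without Flt3-L 11 day array 3 and without CsA 11 day array 3.

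In the OAS family 3 members were lower, Oas3 by -0.37 ± 0.10 (adjusted p = 0.0178), Oasl1 by -0.37 ± 0.12 (0.047) and Oasl2 by -0.38 ± 0.11 (0.0247), the last with overlapping arrays. Oas3 lost its call without Flt3-L 11 day array 3 (-0.25, adjusted p = 0.172), CsA 11 day array 2 (0.0584) or array 3 (0.0648), and in a fit of only these groups (0.061). Oasl1 lost its call whichever array was left out (up to 0.166, without CsA 11 day array 2), with array weights (0.0741) and after a second quantile normalization (0.0517). Oasl2 lost its call without Flt3-L 11 day array 3 and without CsA 11 day array 3. Bst2 was the member that was higher, at 9.23, 9.24 and 9.32 with CsA against 8.99, 9.07 and 9.20 without it (0.18 ± 0.05, adjusted p = 0.0298). With each array's median subtracted, no member was called higher and 11 were called lower. In a fit of only these groups no member was called higher either. The same held without Flt3-L 11 day array 1 or 2, or without CsA 11 day array 2 or 3. Rsad2 read 9.10, 9.17 and 9.14 against 9.07, 9.15 and 9.53 and was not called (-0.12 ± 0.09), nor was Cxcl10, at 7.71, 7.60 and 7.79 against 7.38, 7.36 and 7.69 (0.23 ± 0.19).

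Cxcl9 read 6.19, 5.91 and 6.18 with CsA and 7.34, 6.30 and 7.94 without it, 2.15-fold lower (-1.10 ± 0.22, adjusted p = 0.000715). No array with CsA reached the lowest without it, but the arrays without CsA had an SD of 0.83. A fit of only these groups gave an adjusted p of 0.0794. The mean with CsA, 6.09, was below 6.23, where signals are dim. On the same 3 arrays without CsA the T cell gene Cd3g read 6.48, 5.99 and 7.06, the NK cell receptor gene Ncr1 5.43, 5.34 and 6.53, and the interferon-responsive factor gene Irf1 9.50, 9.51 and 10.04, so that array 3 was highest for all of them. Array 3 was also the highest of these arrays for 27 of the 33 members. Cd3g on array 2 and Ncr1 on arrays 1 and 2 were below 6.23 as well, and these genes were picked with their values seen. The 8 T and NK cell markers summed to 768 to 1073 without CsA and 1002 to 1149 with it, with 1 called higher (Cd4) and 3 lower (Cd3g, Ncr1 and Klrb1c). Interferon gamma itself, Ifng, read 6.44, 6.31 and 6.44 without CsA and 6.36, 6.45 and 6.34 with it. Their part in the Cxcl9 result was not tested.

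Markers of several cell types also differed between the 11 day groups. The 13 neutrophil markers summed to 2222 to 3035 with CsA and 5694 to 6259 without it, with 10 of 13 called lower. The 7 B lineage markers summed to 552 to 594 against 1677 to 2155, with 5 called lower, and the 11 conventional dendritic cell markers to 11127 to 13969 against 19540 to 19909, with 10 called lower. Sums were closer for the 10 plasmacytoid dendritic cell markers (5391 to 5751 against 5854 to 6409, 7 called lower and 2 higher) and the 11 monocyte and macrophage markers (45304 to 46349 against 41190 to 43642, 1 called higher). Their part in the lower interferon-stimulated genes was not tested. Of the 12 calls, 6 to 10 remained in number when 1 array was left out, with 7 without Flt3-L 11 day array 3 or CsA 11 day array 2 and 6 without CsA 11 day array 3, and Mx1, Usp18, Tap1, Dhx58 and Stat2 were called in every one of these fits and under the 8 other settings.

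**Figure D3:**
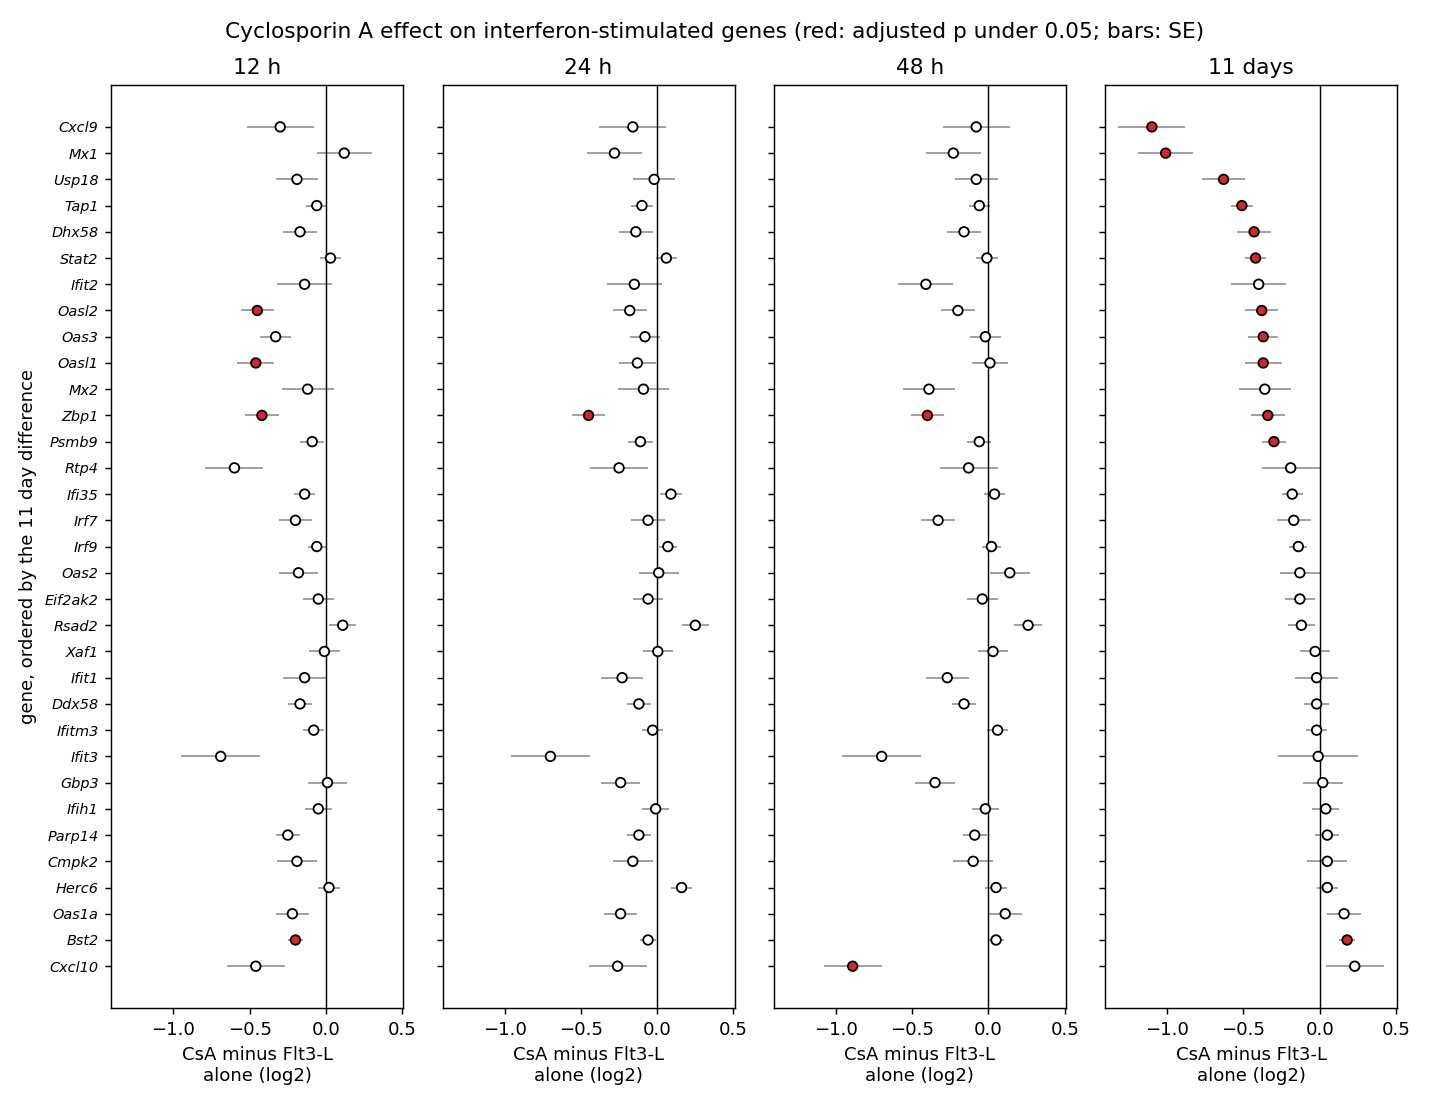
Log2 difference between cultures with CsA and Flt3-L alone for the 33 measured interferon-stimulated genes at 12 h, 24 h, 48 h and 11 days, with bars of 1 SE and 3 arrays a group; red points had an adjusted p under 0.05. Genes are ordered by the 11 day difference: the 11 called lower at 11 days run from Cxcl9 at -1.10 to Psmb9 at -0.30, and Cxcl10 at the bottom was called lower at 48 h only.

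To ask whether the CsA effect at 11 days differed from the earlier ones, it was tested against the mean of the 12 h, 24 h and 48 h effects. Of the members 8 were called, 2 in the higher and 6 in the lower direction, with 11.9% of all genes called, 5.21% higher and 6.7% lower. The difference was -0.92 ± 0.25 for Cxcl9 (adjusted p = 0.0158), -0.89 ± 0.21 for Mx1 (0.00621), -0.53 ± 0.17 for Usp18 (0.0368), -0.45 ± 0.08 for Stat2 (0.000247), -0.43 ± 0.08 for Tap1 (0.000834) and -0.32 ± 0.10 for Rsad2 (0.0339). In the opposite direction, the difference was 0.76 ± 0.21 for Cxcl10 (adjusted p = 0.0199) and 0.25 ± 0.06 for Bst2 (0.00886). For Stat2 the earlier effects were 0.03, 0.06 and -0.01, and for Tap1 -0.06, -0.10 and -0.06, against -0.42 and -0.51 at 11 days. For Rsad2 they were 0.11, 0.25 and 0.26, against -0.12 at 11 days, and Rsad2 was not called with CsA at any single time. Zbp1 was not called here; its CsA effects were -0.42, -0.45, -0.40 and -0.34. Without Flt3-L 11 day array 3 the Cxcl9 difference was -0.55 (adjusted p = 0.094), and its call also ended without CsA 11 day array 2 (0.0609). The Rsad2 call ended without Flt3-L 11 day array 3 or CsA 11 day array 2 or 3. The Cxcl10 call ended without Flt3-L 11 day array 1 or 2 or CsA 11 day array 3 (up to 0.0632), and the Usp18 call for 10 of 24 arrays left out in turn (up to 0.145, without CsA 11 day array 3). The Usp18 call also ended under 4 of the 8 other settings, with adjusted p from 0.0505 when the fit held just the 8 groups of this test to 0.0538 after a second quantile normalization.

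Upstream of the members, few interferon genes were called with CsA. Of 16 measured ligand genes the type III interferon Ifnl2 was the 1 called with CsA, higher at 11 days (0.26 ± 0.08, adjusted p = 0.0386), when 4.92% of all genes were called higher. The interferon beta gene Ifnb1 read 5.03, 5.25 and 5.16 in unstimulated cells and 5.35, 5.41 and 5.46 after 12 h, a change of 0.26 ± 0.06 (adjusted p = 0.00147) at a level below 6.23, where signals are dim. Ifng was lower than in unstimulated cells at all 4 times without CsA, by -0.39 ± 0.09, -0.33 ± 0.09, -0.54 ± 0.09 and -0.60 ± 0.09 (adjusted p = 0.00169, 0.00594, 3.24e-05 and 4.49e-06).

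Of 9 measured genes for receptors and their kinases, 7 were called at 12 h without CsA, all higher, when 17.8% of all genes were called higher. At 11 days 6 were higher and 2 lower, with 27.2% of all genes called higher and 24.8% lower. Ifnar1 read 9.79, 9.81 and 9.84 unstimulated and between 10.62 and 10.75 on all 12 arrays with Flt3-L alone. It was higher by 0.92 ± 0.04 at both 12 h and 11 days (adjusted p = 1.19e-14 and 6.28e-16), and Ifnar2 by 0.51 ± 0.05 and 0.56 ± 0.05 (5.95e-09 and 2.17e-10). The interferon gamma receptor gene Ifngr1 was higher by 0.16 ± 0.05 at 12 h and 0.50 ± 0.05 at 11 days (adjusted p = 0.0115 and 1.92e-09). Receptor subunits for type III interferon parted, with Ifnlr1 at -2.28 ± 0.07 and Il10rb at 1.51 ± 0.05 at 11 days (adjusted p = 5.45e-19 and 1.7e-19). Thus the type I receptor genes were higher at 11 days, when 7 members were called higher and 15 lower. With CsA, 1 of 9 was lower at 12 h, 2 at 24 h and 2 at 48 h, against 3.91%, 2.19% and 2.34% of all genes called lower. At 11 days the kinase gene Jak2 was lower (-0.46 ± 0.07, adjusted p = 2.66e-05) and Il10rb higher (0.31 ± 0.05, 2.9e-05).

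Of 13 measured genes for sensing nucleic acid and signalling from the sensors, 6, 9, 10 and 9 were higher than in unstimulated cells at 12 h, 24 h, 48 h and 11 days without CsA, and at most 2 were lower at any of these times. Of all genes, 17.8%, 17.9%, 18.5% and 27.2% were called higher. The endosomal receptor gene Tlr3 read 5.32, 5.59 and 5.62 unstimulated and 9.0, 9.01 and 8.92 at 11 days (3.47 ± 0.11, adjusted p = 1.91e-19). Tlr8 was higher by 2.38 ± 0.07 and Tlr7 by 1.84 ± 0.08 at that time (adjusted p = 6.08e-20 and 3.9e-16). With CsA, 3 of 13 were lower at 12 h, 2 at 24 h and 2 at 48 h (3.91%, 2.19% and 2.34% of all genes), Tlr8 among them each time (-0.43 ± 0.07, -0.44 ± 0.07 and -0.27 ± 0.07, adjusted p = 0.000817, 0.000294 and 0.0206). At 11 days 3 were lower, Sting1 (the adaptor for cytosolic DNA, -0.52 ± 0.07, adjusted p = 2.14e-06), Tlr3 (-0.33 ± 0.11, 0.045) and Tlr9 (-0.20 ± 0.06, 0.0327), and 2 higher, Ikbke and Tlr7 (0.45 ± 0.07 and 0.28 ± 0.08, 2.08e-05 and 0.0251).

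Of the 6 further interferon regulatory factors measured, Irf4, a lymphoid and dendritic cell factor, was lower with CsA at all 4 times. It read 7.00, 6.83 and 6.82 with CsA and 7.59, 7.97 and 7.91 without it at 11 days, and the groups did not overlap at any time. The differences were -0.37 ± 0.10, -0.42 ± 0.10, -0.56 ± 0.10 and -0.94 ± 0.10 (adjusted p = 0.026, 0.0108, 0.000519 and 7.04e-08). At 11 days 4 of the 6 were lower, against 7.08% of all genes, with Irf1 at -0.46 ± 0.10 (adjusted p = 0.00209), Irf5 at -0.24 ± 0.07 (0.0212) and Irf2 at -0.16 ± 0.05 (0.0337). Irf1, which acts downstream of interferon gamma, was higher than in unstimulated cells at 12 h and 24 h without CsA (0.29 ± 0.10 and 0.37 ± 0.10, adjusted p = 0.0261 and 0.00457). Among 10 measured restrainers of the response, Samhd1, an enzyme that breaks down nucleotides, was lower with CsA at all 4 times (-0.21 ± 0.06, -0.32 ± 0.06, -0.35 ± 0.06 and -0.62 ± 0.06, adjusted p = 0.0346, 0.000946, 0.000333 and 1.6e-08). The phosphatase gene Ptpn6 was the other one lower at 12 h, 24 h and 48 h, and the RNA-editing enzyme Adar the other one at 11 days (-0.22 ± 0.06, 0.00838).

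A list of 36 further measured interferon-induced genes gave 2, 3, 2 and 10 calls with CsA at 12 h, 24 h, 48 h and 11 days, all of them lower, against 3.91%, 2.19%, 2.34% and 7.08% of all genes called lower. The 11 day falls were led by Ifi27l2a, which read 7.72, 7.67 and 7.59 with CsA and 9.25, 9.08 and 9.35 without it (-1.57 ± 0.16, adjusted p = 4.75e-08). Next came Ifi205, a DNA-binding protein (-0.94 ± 0.16, adjusted p = 0.000189), Ciita, the master activator of MHC class II genes (-0.88 ± 0.08, 4.24e-09), and Iigp1, a GTPase that attacks parasite vacuoles (-0.66 ± 0.21, 0.0393). The list's median at 11 days was -0.09, against 0.03 for all genes. Against unstimulated cells 13 of the 36 were higher and 13 lower at 11 days without CsA, when 51.9% of all genes were called, with Ifi205 at 2.65 ± 0.16, and Slfn1 and Isg20 at -4.97 ± 0.14 and -3.80 ± 0.07 (adjusted p = 2.91e-13, 5.54e-20 and 9.58e-24).

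The members varied more between replicate arrays than most genes did. The SD within groups, pooled over the 9 groups, had a median of 0.144 over the 33 members against 0.096 over all genes, and 17 members were above the 90th percentile of genes. Ifit3 had an SD of 0.364, Cxcl9 0.301, Rtp4 0.258, Cxcl10 0.255 and Mx1 0.254, whereas Bst2 had 0.059 and Irf9 0.067. The members also deviated together. Array 1 at 12 h of Flt3-L alone held the highest of 3 values for 29 of the 33 members, array 3 at 24 h for 28 and array 3 at 11 days for 27. With CsA array 2 at 12 h did so for 29 members and array 2 at 48 h for 28. Mean signals over the members were 9.0 on that 12 h array against 8.80 and 8.78 on the others of its group, and 8.92 on the 24 h array against 8.57 and 8.66, while the mean over all genes differed by at most 0.02 within those groups. The CsA calls at 12 h and 24 h were lost without these arrays of Flt3-L alone, and what set them apart was not tested.

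**Figure D4:**
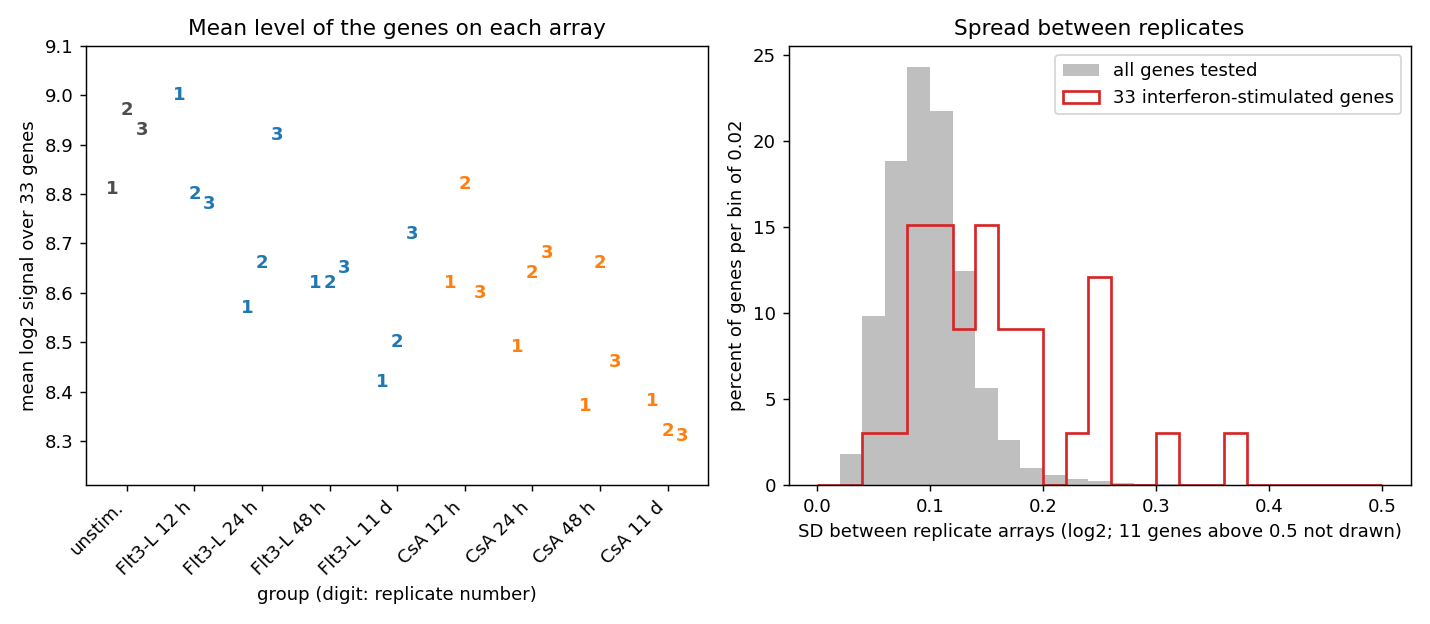
Left: mean log2 signal over the 33 measured interferon-stimulated genes on each array, with the digit giving the replicate number, for unstimulated cells (grey), Flt3-L alone (blue) and Flt3-L with CsA (orange). Right: SD between replicate arrays for all 19935 genes (grey) and the 33 members (red outline), as percent of genes per bin of 0.02; array 1 at 12 h (9.0) and array 3 at 24 h (8.92) of Flt3-L alone stand above the other arrays of their groups, and the members' SD reaches 0.364.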

How the data were processed

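Total RNA was extracted with Trizol, labelled with the WT Expression Kit and hybridised to Affymetrix arrays, per the labels' protocols. The deposited intensity values are RMA signals of the authors, per the submitters' processing notes; no version is given in the sources used here. They were on a linear scale (5.2 to 18180.7), and log2 was taken before any test. Of 28815 probe sets 21780 carried 1 gene symbol, 1605 several and 5430 none, by GEO's annotation of the platform, some of it outdated. Per gene the probe set with the highest mean was kept, leaving 19935 genes.

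limma 3.58.1 (R 4.3.3) was fitted to 9 group means over 27 arrays, with Benjamini-Hochberg adjustment over all genes of a comparison and calls at an adjusted p under 0.05. The script was tested on simulated data. Precision is limited by the 3 arrays a group. Further steps used Python 3.11.15 with the packages pandas 2.3.3, matplotlib 3.10.9 and numpy 2.4.6.

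Genes with values on every array were named by rule. In each CsA comparison these were up to 8 called members with the largest change whose groups did not overlap, and in other comparisons up to 6. Of each pathway list up to 4 called genes were named in a comparison, and always Ifnb1, Ifng, Ifnar1, Ifnar2, Ifngr1 and Irf1; 1 further gene of that rule is not reported here. Further members are named to account for all of them, and Ifnl2, Tlr8 and the genes printed beside Cxcl9 were chosen with their values seen. The members, lists and tests were chosen with earlier results of these data known.

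Groups share replicate numbers in the labels, so pairing was checked by correlating the deviations of same-numbered arrays from their group means over all genes. In the CsA comparison the pairs correlated by 0.369, 0.346 and 0.398 after 24 h, and by 0.539, 0.178 and 0.192 after 48 h. In that of Flt3-L alone with unstimulated cells they correlated by 0.196, 0.144 and 0.103 after 12 h, and by 0.347, 0.126 and 0.182 after 24 h. In no other comparison was every pair over 0.1. Some arrays correlated better with another number, up to 0.233 and 0.216 for numbers 2 and 3 in the CsA comparison after 48 h and 0.174 for number 2 after 24 h of Flt3-L alone. The labels do not say what a number marks. Alternatives were a variance trend with robust variances, array weights, a filter on genes with a mean log2 signal below 6.23, a second quantile normalization, array medians set to the same level, probe sets of a gene averaged, the replicate number as a block, a fit of only the groups compared, and leaving out each array in turn.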

Additional observations from a re-analysis of the deposited data

Results flagged for a closer look

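The CsA effect at 11 days differed from the mean of the 12 h, 24 h and 48 h effects for 8 members, by limma's test of that difference with adjusted p over all genes. It was more negative at 11 days for Cxcl9 (-0.92, adjusted p = 0.0158), Mx1 (-0.89, 0.00621), Usp18 (-0.53, 0.0368), Stat2 (-0.45, 0.000247), Tap1 (-0.43, 0.000834) and Rsad2 (-0.32, 0.0339). Rsad2 was not called with CsA at any single time, with effects of 0.11, 0.25, 0.26 and -0.12 in order of time. The effect at 11 days was more positive for Cxcl10 (0.76, adjusted p = 0.0199), which was lower with CsA at 48 h, and for Bst2 (0.25, 0.00886), which was lower with CsA at 12 h and higher at 11 days.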

How the results depend on the processing

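Of 57 named results 47 kept their call and direction under all 8 other settings, 43 with every array left out in turn and 42 under both, and none reversed. With CsA at 12 h the 4 members called became 11 with array weights, 7 with the filter on dim genes, 7 with quantile normalization again, 7 with the replicate block and 0 in a fit of only these groups, where 11 members had an unadjusted p under 0.05. Of all genes tested, 26.6%, 10.1%, 6.37%, 10.6% and 0.888% were called under these settings, against 6.73%. With CsA at 48 h the 2 called became 4 with array weights and 4 with quantile normalization again (6.42% and 5.85% of all genes, against 4.51%), and at 11 days the 12 called became 7 in a fit of only these groups (8.86%, against 12%). The causes of these moves were not tested. A fit of only 2 groups also has fewer arrays to set the spread, and the part of this was not tested either.

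With 1 array left out, the members called ranged from 0 to 3 for CsA at 12 h, 0 to 1 at 24 h, 1 to 2 at 48 h and 6 to 10 at 11 days. They ranged from 11 to 16 for Flt3-L alone at 12 h, 12 to 15 at 24 h, 19 to 21 at 48 h and 21 to 24 at 11 days. From 48 h to 11 days they ranged from 19 to 24 without CsA and 18 to 20 with it, and for the difference of CsA effects from 5 to 8.

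The replicate block ended no call of a named result. It added calls of Oas3 (adjusted p = 0.0449), Parp14 (0.0486) and Rtp4 (0.0307) for CsA at 12 h, of Ifit2 (0.0379) for Flt3-L alone at 24 h, of Oas1a (0.0434) and Tap1 (0.0482) from 48 h to 11 days without CsA, and of Cmpk2 (0.024) over the same interval with it. At 12 h of CsA same-numbered arrays correlated at 0.19, 0.188 and 0.0979, each above its correlation with other numbers. At 11 days of CsA they correlated at 0.00981, 0.108 and -0.0387. What a number marks is not in the labels and was not tested. When the fit held only the arrays compared, 8 named results lost their call. Mx2 was the 1 member with a mean below 6.23, where changes are hard to measure.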
